A study of Mus musculus with 15 samples.

Results

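Kruppel-like factors are transcription factors that share 3 zinc fingers at the carboxyl end, with which they bind GC-rich and CACCC sequences in promoters. The amino-terminal part differs between members and recruits either coactivators or corepressors such as Sin3 and histone deacetylases. In kidney, Klf2 is known for quiescent, flow-exposed endothelium, Klf4 for endothelium and podocytes, Klf6 for the response to injury, Klf9 and Klf15 for control by steroid hormones and the circadian clock, Klf13 as a close relative of Klf9, Klf10 for early TGF-beta signalling, and Klf15 for podocyte differentiation and for the breakdown of amino acids in tubule cells. The 7 genes Klf2, Klf4, Klf6, Klf9, Klf10, Klf13 and Klf15 were chosen by symbol, and they were 7 of 13933 genes with an annotated transcript listed for every mouse.

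Whole-kidney RNA of 15 male wild type C57BL/6 mice, bought at 8 weeks of age, was sequenced in 3 groups of 5. Control mice carried osmotic pumps with saline for 28 days. Ang II mice were infused with angiotensin II, the peptide that raises blood pressure, at 500 ng/kg/min for 28 days. Ang II + QDG mice received the same infusion and Qingda granule, a Chinese herbal formula, by gavage at 1.145 g/kg per day, whereas the other 2 groups received water. The comparisons address how these genes respond to angiotensin II and to the granule given on top of it. As whole kidney was used, fewer cells of a type and less RNA per cell cannot be told apart.

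The values are FPKM, fragments per length of transcript and depth of library, summed per gene over annotated transcripts. They came out as whole multiples of 1 read at 68922600 to 81329200 reads per mouse (median 76937400), so that the lowest member value, Klf4 in 1 Control mouse, corresponded to 145 reads and the highest, Klf9 in another, to 26748. Differences were tested with limma on log2(FPKM + 1), which understates the change of genes at low FPKM, across 12366 genes at an adjusted p below 0.05. Markers of proximal tubule, distal nephron, podocytes and endothelium were listed in every mouse, apart from Synpo, and 4 of 5 adrenal cortex markers were not listed in all files. The mitochondrial genome took 18.6% to 20.7% of FPKM in Control, 15.4% to 16.0% in Ang II and 17.0% to 19.8% in Ang II + QDG mice, and the summed podocyte markers ran from 76.6 to 85.7 FPKM in Control, from 103 to 130 in Ang II and from 100 to 127 in Ang II + QDG mice. In both measures Control and Ang II mice did not overlap, and in the podocyte markers neither did Control and Ang II + QDG mice, and the part of either in the results below was not tested. The mitochondrial share also did not overlap between Ang II and Ang II + QDG mice. Summed proximal tubule markers separated Ang II mice (4915 to 6938 FPKM) from Ang II + QDG mice (7094 to 11816), and those of smooth muscle and pericytes (38.5 to 52.0 against 54.5 to 65.0) and of erythroid cells (544.6 to 1362 against 1557 to 2818) separated Control from Ang II + QDG mice. Their part in the differences between these groups, those of Klf13, Fkbp5 and Dusp1 included, was not tested.

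The start-site regions of 3 members are shown because their values carry most of what follows: Klf9 was the most abundant member, Klf13 the only one whose Ang II and Control mice separated, and Klf15 the one whose listed values moved between 3 transcripts from mouse to mouse. Each sequence is the 250 bases before the RefSeq start site on the gene's own strand (RefSeq, GRCm38.p6), and lies outside the exons of the GENCODE annotation. Capitals mark 4 motifs found on either strand, and matches that overlap run together. The GC box, to which SP and Kruppel-like factors bind, was searched as GGGCGG. Its variant in globin promoters, the CACCC box, was searched as CCACCC. The CCAAT box, a common promoter element bound by NF-Y, was searched by its name. The E-box, to which the clock proteins BMAL1 and CLOCK bind, was searched as CACGTG.
Klf9, chr19:23140976-23141225, plus strand: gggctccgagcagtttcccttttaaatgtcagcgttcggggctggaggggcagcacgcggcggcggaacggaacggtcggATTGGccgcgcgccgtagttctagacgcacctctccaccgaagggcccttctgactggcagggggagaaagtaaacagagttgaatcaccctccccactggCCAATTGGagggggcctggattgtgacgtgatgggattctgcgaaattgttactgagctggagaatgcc
Klf13, chr7:63938916-63939165, minus strand: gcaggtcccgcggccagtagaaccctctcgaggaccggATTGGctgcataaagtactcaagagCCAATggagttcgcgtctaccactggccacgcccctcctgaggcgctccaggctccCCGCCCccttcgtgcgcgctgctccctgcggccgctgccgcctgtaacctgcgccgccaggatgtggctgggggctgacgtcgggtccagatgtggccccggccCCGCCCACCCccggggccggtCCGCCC
Klf15, chr6:90462326-90462575, plus strand: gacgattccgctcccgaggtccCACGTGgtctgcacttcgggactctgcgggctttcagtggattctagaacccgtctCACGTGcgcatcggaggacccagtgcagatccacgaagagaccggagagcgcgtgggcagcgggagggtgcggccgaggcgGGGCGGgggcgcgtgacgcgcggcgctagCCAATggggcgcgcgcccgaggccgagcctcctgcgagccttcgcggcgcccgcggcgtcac

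The Klf13 region held 3 GC boxes, at -131, -27 and -6 from the start, a CACCC box at -23 that overlaps the middle one, and 2 CCAAT boxes. The Klf15 region held 2 E-boxes, at -228 and -172, a GC box and a CCAAT box. It lies before the start of ENSMUST00000032174, at chr6:90462576. The other listed Klf15 transcripts start downstream, at 90465304 and 90466400. They carried most of the Klf15 FPKM in all mice but Ang II replicate 4 and Ang II + QDG replicate 4. The Klf9 region held neither a GC box nor a CACCC box but 3 CCAAT boxes, the last 2 of which overlap. Of 32851 such regions of all genes, 32.7% held a GC box, 28.1% a CACCC box, 33.8% a CCAAT box and 6.0% an E-box. Regions were found for 6 members and their GC content ran from 59.6% in Klf9 to 74.0% in Klf4, against a median of 52.4% over all regions. These matches describe letters, not sites of binding.

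Over the 15 mice the order of the levels was Klf9, Klf15, Klf2, Klf13, Klf6, Klf10 and Klf4, with means of 57.1, 27.9, 13.2, 10.9, 8.22, 5.16 and 2.22 FPKM. Klf9 exceeded Klf15, and Klf15 exceeded Klf2, in all 15 mice. The neighbours Klf2 and Klf13 were the least clearly ordered, with Klf2 higher in 12 of 15 mice, and Klf6 exceeded Klf10 in 13 of 15. Klf13 was above Klf6, and Klf10 above Klf4, in 14 of 15. All 6 of these neighbouring pairs kept their order in the 5 Control mice.

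**Figure D1:**
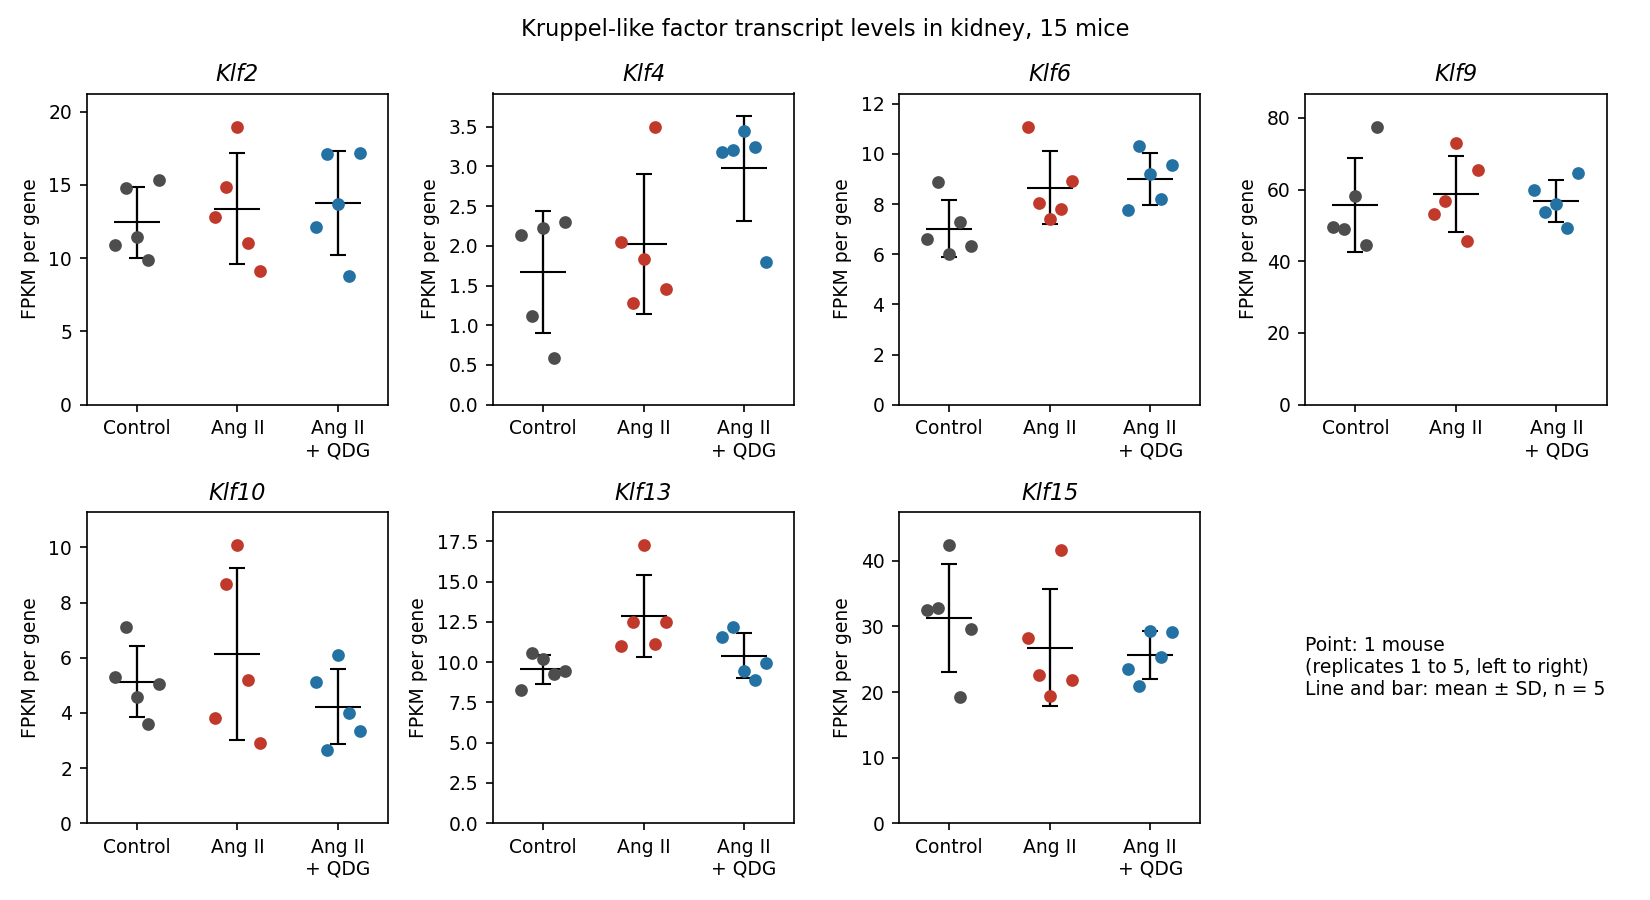
FPKM per gene of the 7 Kruppel-like factors in each of 15 mice (points) with mean ± SD of each group (n = 5), each panel on its own linear axis from 0. In the Klf13 panel every Ang II mouse lies above every Control mouse, with 1 Ang II mouse at 17.3 FPKM, and in the other panels the groups overlap.

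No member passed the test in any comparison. In Ang II vs. Control 0 of 7 were called, against 5.94% of all genes tested (735 genes, of which 612 were higher and 123 lower in Ang II). This split depends on the scaling, with 227 of 493 called genes higher after quantile normalization and 210 of 496 after median scaling. In Ang II + QDG vs. Ang II 0 of 7 were called against 1.81% of all genes, and in Ang II + QDG vs. Control 0 of 7 against 0.129%. At an unadjusted p below 0.05 there were 2, 1 and 2 members in the 3 comparisons, where all genes gave 22.7%, 16.4% and 14.4%. Groups did not overlap for 1, 0 and 0 members, against 7.92%, 5.00% and 3.64% of all genes.

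The members' median log2 fold change was 0.13 in Ang II vs. Control, with 6 estimates above 0 and 1 below, and the median over all genes was 0.083. It was -0.018 for Ang II + QDG against Ang II (3 above and 4 below) and 0.11 for Ang II + QDG against Control (5 above and 2 below), where all genes had medians of -0.018 and 0.059. The 95% confidence intervals reached from 0.25 to 0.59 log2 units to either side of an estimate. The comparisons share groups, so a mouse that stands apart moves 2 of them.

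**Figure D2:**
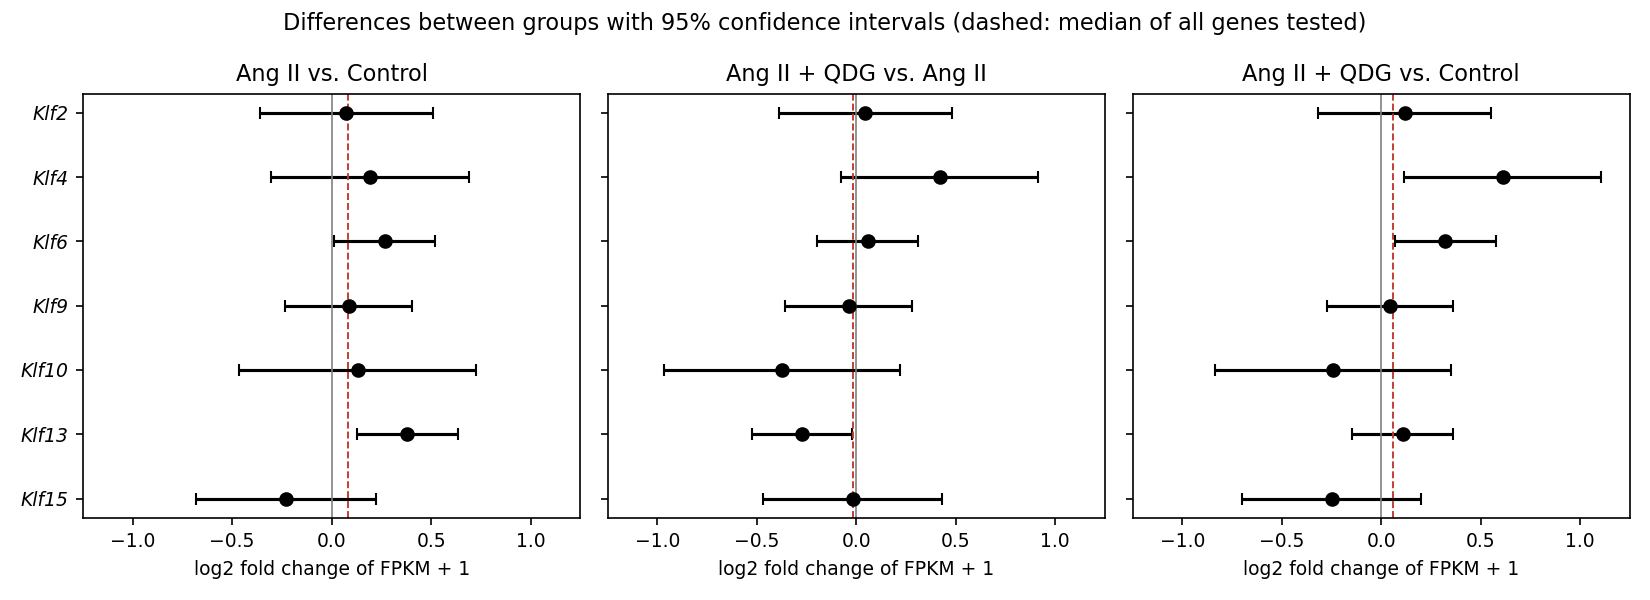
Log2 fold change of FPKM + 1 for each Kruppel-like factor in the 3 comparisons, with 95% confidence intervals from limma, a grey line at 0 and a dashed line at the median of all genes tested. The interval of Klf13 lies above 0 in Ang II vs. Control and below 0 for Ang II + QDG against Ang II, that of Klf6 lies above 0 in Ang II vs. Control, and those of Klf4 and Klf6 lie above 0 for Ang II + QDG against Control, before adjustment over the genes tested.

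Among the members that endothelial cells are known for, Klf2 (ENSMUSG00000055148, chr8:72319033-72321656), which promotes the expression of endothelial nitric oxide synthase and thrombomodulin, had similar means in the 3 groups. Klf2 was at 10.9, 14.8, 11.4, 9.89 and 15.3 FPKM in Control, at 12.8, 14.9, 19.0, 11.1 and 9.11 in Ang II and at 12.1, 17.1, 13.7, 8.78 and 17.2 in Ang II + QDG mice. The groups overlapped over most of their range, and both the highest and a low value came from Ang II mice. The means were 12.5 ± 2.43, 13.4 ± 3.78 and 13.8 ± 3.55 FPKM (SD, n = 5 each), and the log2 fold changes were 0.073 for Ang II vs. Control (95% CI -0.36 to 0.51, limma adjusted p = 0.872) and 0.045 for Ang II + QDG against Ang II (adjusted p = 0.945). The Ang II vs. Control estimate of Klf2 lies below the median of all genes and turns negative under quantile normalization (-0.0080) and median scaling (-0.023).

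Klf4 (ENSMUSG00000003032, chr4:55527143-55532466), one of the factors that restore pluripotency and a partner of Klf2 in endothelium, was the least abundant member. It was at 2.13, 1.117, 2.22, 0.589 and 2.30 FPKM in Control, at 2.05, 1.28, 1.84, 3.50 and 1.45 in Ang II and at 3.18, 3.20, 3.44, 3.25 and 1.80 in Ang II + QDG mice. Of the 5 Ang II + QDG mice, 4 lay above all Control mice and 1 among them, and 1 Ang II mouse was the highest of all. The means were 1.67 ± 0.773, 2.02 ± 0.878 and 2.98 ± 0.665 FPKM (SD, n = 5 each). Ang II + QDG vs. Control gave a log2 fold change of 0.61 (SE 0.23, 95% CI 0.11 to 1.11, unadjusted p = 0.0195 and adjusted p = 0.255 in limma), the largest estimate among the 21 of the members, and Ang II + QDG vs. Ang II gave 0.42 (adjusted p = 0.395). With a pseudocount of 0.01 in place of 1 the Klf4 estimates were 0.96 and 0.61, and that for Ang II against Control, 0.19 here, was 0.35, with adjusted p = 0.279, 0.465 and 0.632. At the pseudocount of 1 the last ran from 0.019 (without Control replicate 4) to 0.28 (without Ang II replicate 2) when 1 mouse was left out. The summed podocyte markers, at 76.6 to 85.7 FPKM in Control and 100 to 127 in Ang II + QDG mice, did not overlap between these 2 groups, and their part in the Klf4 values was not tested. The summed endothelial markers overlapped, at 54.3 to 78.3 FPKM in Control, 58.0 to 77.2 in Ang II and 60.3 to 82.0 in Ang II + QDG mice.

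Klf6 (ENSMUSG00000000078, chr13:5861482-5870394), an injury-responsive factor found in tubule cells and podocytes, had higher means in both infused groups. Its values were 6.59, 8.89, 6.01, 7.30 and 6.31 FPKM in Control, 11.1, 8.04, 7.41, 7.82 and 8.92 in Ang II and 7.75, 10.3, 9.20, 8.19 and 9.54 in Ang II + QDG mice. A single Control mouse, at 8.89, reached into the range of both infused groups, and the other 4 lay below them. Means were 7.02 ± 1.15, 8.65 ± 1.46 and 8.998 ± 1.03 FPKM (SD, n = 5 each), with log2 fold changes of 0.27 for Ang II against Control (SE 0.12, unadjusted p = 0.0398, adjusted p = 0.195) and 0.32 for Ang II + QDG against Control (SE 0.12, unadjusted p = 0.0157, adjusted p = 0.232) in limma. Neither passed the test, and under quantile normalization and median scaling the first was 0.18 and 0.17. Klf6 in Ang II + QDG and Ang II mice differed by 0.057 (95% CI -0.20 to 0.31). With 1 mouse left out this ran from 0.0098 (without Ang II replicate 3) to 0.14 (without Ang II replicate 1).

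Klf10 (ENSMUSG00000037465, chr15:38291463-38300706), which TGF-beta induces within hours and which damps SMAD7 expression, had the widest relative spread in Ang II mice of the members, with a coefficient of variation of 50.8%. It was at 5.32, 7.11, 4.58, 3.59 and 5.03 FPKM in Control, at 3.81, 8.68, 10.1, 5.19 and 2.90 in Ang II and at 5.10, 2.64, 6.09, 3.995 and 3.33 in Ang II + QDG mice. The 2 highest mice and 1 of the lowest were all in the Ang II group. The log2 fold changes were 0.13 for Ang II against Control (95% CI -0.46 to 0.72, adjusted p = 0.826) and -0.37 for Ang II + QDG against Ang II (95% CI -0.97 to 0.22, adjusted p = 0.545) in limma. Without the Ang II mouse at 10.1 FPKM the Klf10 estimates were -0.057 and -0.19, and without that at 2.90 they were 0.32 and -0.56.

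Of the hormone- and clock-linked members and their relative Klf13, Klf9 (ENSMUSG00000033863, chr19:23141226-23168134), an early target of glucocorticoid and thyroid hormone receptors, was the most abundant. Its values were 49.7, 49.1, 58.1, 44.4 and 77.5 FPKM in Control, 53.2, 56.7, 73.0, 45.8 and 65.4 in Ang II and 59.8, 53.8, 55.9, 49.3 and 64.7 in Ang II + QDG mice. The 3 groups overlapped, and the highest value was that of a Control mouse. With means of 55.8 ± 13.1, 58.8 ± 10.6 and 56.7 ± 5.88 FPKM (SD, n = 5 each), Klf9 had log2 fold changes of 0.085 for Ang II against Control (95% CI -0.23 to 0.40), -0.039 for Ang II + QDG against Ang II and 0.046 for Ang II + QDG against Control, with limma adjusted p = 0.781 to 0.933. With 1 mouse left out the first ran from 0.0038 (without Ang II replicate 3) to 0.21 (without Control replicate 5).

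Klf13 (ENSMUSG00000052040, chr7:63886351-63938915), a Klf9 paralogue that activates Ccl5 in T cells and recruits Sin3 corepressors, was the member nearest to the threshold. The Control mice were at 8.30, 10.6, 10.2, 9.24 and 9.47 FPKM, the Ang II mice at 11.02, 12.5, 17.3, 11.1 and 12.5 and the Ang II + QDG mice at 11.6, 12.2, 9.42, 8.90 and 9.95. All 5 Ang II mice lay above all 5 Control mice, and the Ang II + QDG mice overlapped both groups. The means were 9.55 ± 0.879, 12.9 ± 2.55 and 10.4 ± 1.42 FPKM (SD, n = 5 each). The log2 fold change of Klf13 in Ang II vs. Control was 0.38 (SE 0.12, 95% CI 0.13 to 0.63, unadjusted p = 0.00598, adjusted p = 0.0722), while Ang II + QDG against Ang II gave -0.27 (95% CI -0.53 to -0.020, unadjusted p = 0.0362, adjusted p = 0.261) in limma. Ang II + QDG vs. Control gave 0.11 (95% CI -0.14 to 0.36), and 0.053 to 0.16 with 1 mouse left out. Without the Ang II mouse at 17.3 FPKM the first 2 estimates were 0.28 (adjusted p = 0.115) and -0.17 (adjusted p = 0.443). The Ang II vs. Control estimate was 0.30 under quantile normalization (limma adjusted p = 0.197) and 0.29 under median scaling (0.214). It was 0.36 under scaling without the mitochondrial genome (0.101).

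Klf15 (ENSMUSG00000030087, chr6:90462576-90475238), which is induced by glucocorticoids and fasting and raises amino acid catabolism, was the second most abundant member and the only one with a lower mean in Ang II than in Control mice. It was at 32.6, 32.7, 42.4, 19.3 and 29.6 FPKM in Control, at 28.2, 22.6, 19.5, 41.7 and 21.9 in Ang II and at 23.5, 20.99, 29.3, 25.3 and 29.1 in Ang II + QDG mice. Of the 5 Ang II mice, 4 lay below 4 of the Control mice and 1 reached the highest Control values. With means of 31.3 ± 8.27, 26.8 ± 8.95 and 25.7 ± 3.61 FPKM (SD, n = 5 each), Klf15 had log2 fold changes of -0.23 for Ang II against Control (95% CI -0.68 to 0.22, adjusted p = 0.563), -0.018 for Ang II + QDG against Ang II (95% CI -0.47 to 0.43, adjusted p = 0.977) and -0.25 for Ang II + QDG against Control (adjusted p = 0.628) in limma. With 1 mouse left out the first ran from -0.40 (without Ang II replicate 4) to -0.11 (without Control replicate 3), and the last from -0.40 (without Control replicate 4) to -0.13 (without Control replicate 3).

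The members Klf2, Klf4, Klf6, Klf9 and Klf10 had 1 transcript each in the files, whereas Klf13 and Klf15 had 3 each. The long Klf13 transcript ENSMUST00000063694, of 6396 bases, starts at the region printed above and had 6.84 to 8.98 FPKM in Control and 8.03 to 12.98 in Ang II mice. The 599-base ENSMUST00000183817, annotated with a shorter coding part, had 0.694 to 1.58 FPKM in Control and 1.39 to 3.94 in Ang II mice, and the 487-base ENSMUST00000185175 was below 0.1 FPKM in 7 of 15 mice. For each of the 2 first transcripts alone, and for their sum, Ang II and Control mice overlapped, and the separation of the gene sum appeared only with ENSMUST00000185175 added, which was at 1.51 FPKM in the Ang II mouse that otherwise overlapped. The long transcript alone gave a log2 fold change of 0.19 in Ang II vs. Control (limma adjusted p = 0.414 over genes represented by their most abundant transcript). ENSMUST00000183817 gave 0.69 (SE 0.21, unadjusted p = 0.00489, adjusted p = 0.101 over 20987 transcripts).

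The 3 Klf15 transcripts code for the same 1245 bases and differ in their first exons. Of their bases 93.5% to 99.1% are shared, and 153, 154 and 20 bases lie in no other listed transcript. ENSMUST00000032174, which starts at the printed region, was at 26.9 FPKM in 1 Ang II mouse and 22.1 in 1 Ang II + QDG mouse and at 0.197 to 2.01 in the other mice. ENSMUST00000113530 ranged from 12.2 to 36.0 FPKM in 12 mice and was below 0.1 in 3, of which 1 was a Control and 2 were Ang II + QDG mice. ENSMUST00000203607 reached 32.3 FPKM in the Control mouse in which ENSMUST00000113530 was near 0, and 21.5 in an Ang II + QDG mouse of the same kind. Whether these swings lie in the RNA or in how reads were assigned to near-identical transcripts was not tested. In the Ang II mouse at 26.9 FPKM, ENSMUST00000113530 was at 12.8, and the gene sum was 41.7 against 19.5 to 28.2 in the other 4 Ang II mice. With the most abundant transcript alone the Klf15 log2 fold changes, which are those of ENSMUST00000113530, became 0.36 for Ang II against Control, -1.39 for Ang II + QDG against Ang II and -1.03 for Ang II + QDG against Control, none of them called.

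**Figure D3:**
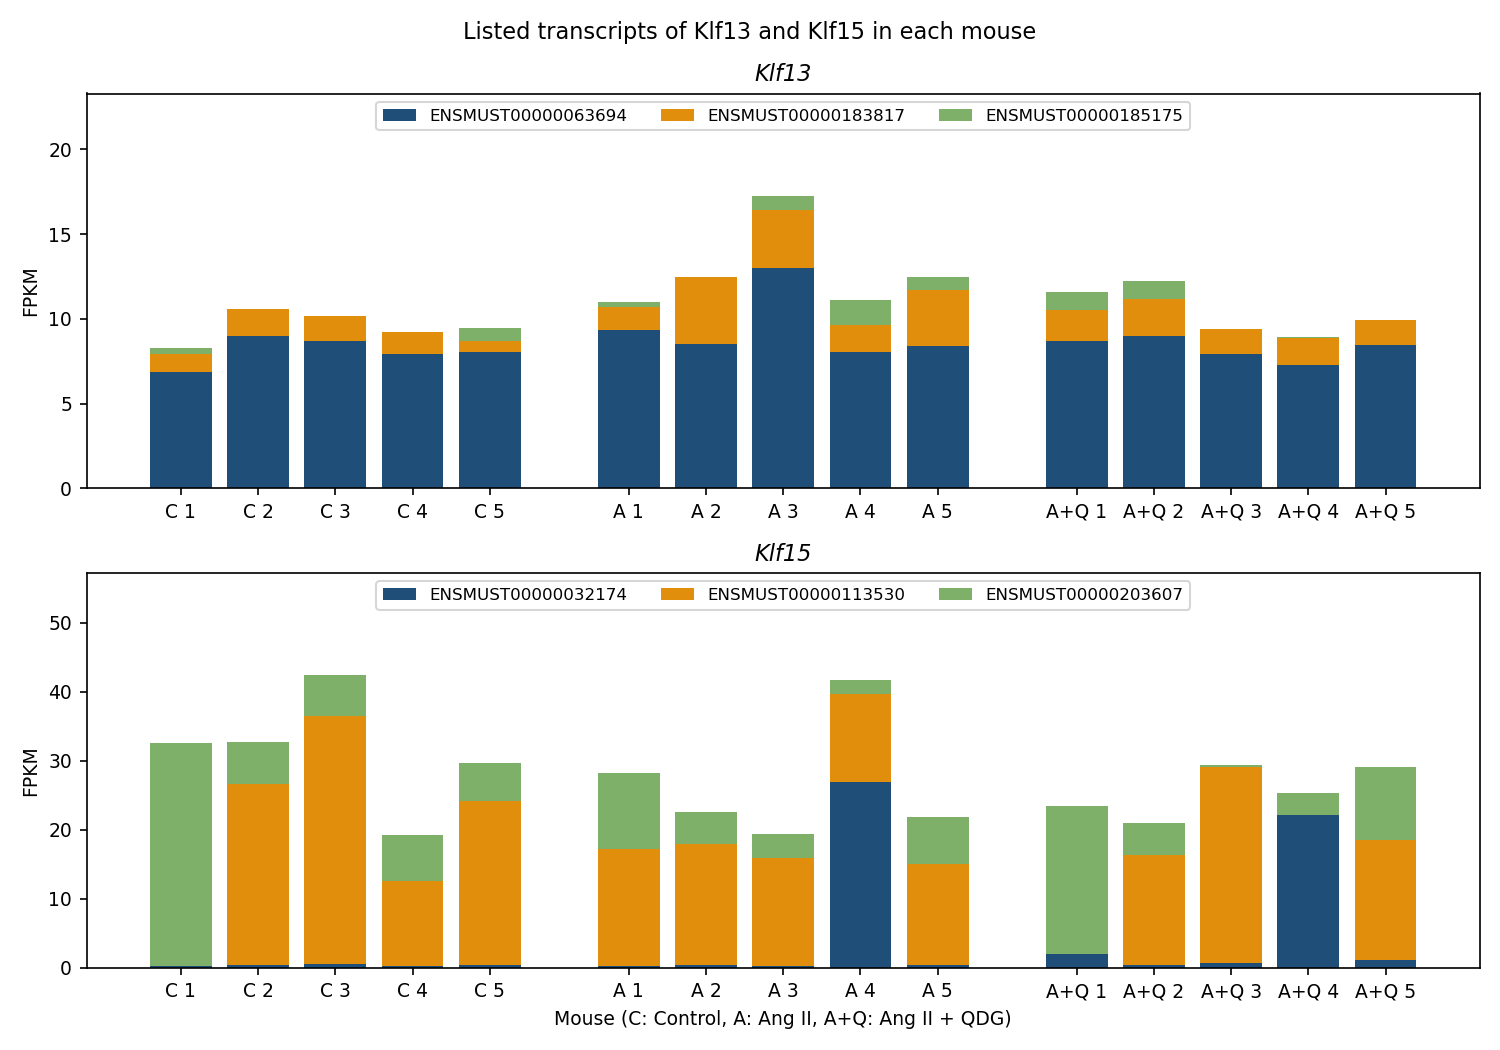
FPKM of the 3 listed transcripts of Klf13 (top) and Klf15 (bottom), stacked in each of 15 mice, with mice on the x axis and FPKM from 0 on the y axis. For Klf13 the long transcript makes up most of every bar, and for Klf15 the transcript that makes up most of the bar changes between mice, with ENSMUST00000032174 prominent in 2 mice at 26.9 and 22.1 FPKM.

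Within groups the members showed no common ordering of the mice. Over the deviations of 15 mice from their group means, 11 of 21 pairs of members had a Pearson's r above 0, and no pair had an adjusted p below 0.05. The highest was between Klf4 and Klf15 (r = 0.64, Spearman's rho = 0.50, permutation p = 0.0302 and 0.0838, adjusted over 21 pairs 0.407 and 0.335), with r = 0.67 after the 2 mice farthest in Klf4 were left out. This pair ran together in Control and in Ang II mice and in opposite directions in Ang II + QDG mice, with 5 mice in each. Klf2 and Klf13 followed at r = 0.61 (rho = 0.54, permutation p = 0.0388 and 0.0707, adjusted 0.407 and 0.335), which was 0.35 without the 2 mice farthest in Klf2. A single Ang II mouse was the highest of its group for Klf2, Klf9, Klf10 and Klf13.

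Among 7279 genes at a mean of at least 5 FPKM, the genes whose deviations from group means over the 15 mice were most like those of a member were Sugct (r = 0.89) and Sfpq (0.86) for Klf2, Tspan5 (0.82) and Aimp2 (0.81) for Klf4, Elovl6 (0.93) and Mon1b (0.90) for Klf6, and Foxo1 (0.90) and Gnptg (0.84) for Klf9. For Klf10 they were Colgalt1 (0.85) and Afm (0.81), for Klf13 2510039O18Rik (0.86) and Cdkn1a (0.85), and for Klf15 Ntan1 (0.84) and Grsf1 (0.81). These are the highest of many correlations over the same libraries and are given as a description.

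Of the other KLF and SP genes, 11 of 19 were listed in every mouse and tested, and 0 were called in any comparison, with 1 at an unadjusted p below 0.05 in each (22.7%, 16.4% and 14.4% of all genes). The most abundant were Klf3, a CtBP-recruiting repressor, at 11.8 ± 1.86, 13.9 ± 2.16 and 11.8 ± 0.918 FPKM in the 3 groups, in the order Control, Ang II, Ang II + QDG (SD, n = 5 each), and Sp3, a widely expressed GC-box factor, at 11.7 ± 1.14, 10.6 ± 0.445 and 12.2 ± 1.88. Of 12 cofactor and ubiquitin ligase genes, 1 fell in Ang II vs. Control, the acetyltransferase gene Kat2b (19.1 ± 0.945 to 16.6 ± 0.789 FPKM, log2 fold change -0.19, adjusted p = 0.0413), and 0 rose, where 5.94% of all genes were called. Kat2b lost its call in 11 of 15 fits that each left out 1 mouse, with the most abundant transcript only (adjusted p = 0.0597) and with only the 2 groups compared (0.0956), and its estimate was -0.29 under median scaling. The median log2 fold change of these 12 genes was 0.093, beside 0.083 over all genes.

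Upstream of Klf2 and Klf4, the MEKK3, MEK5, ERK5 and MEF2 cascade transmits flow to their promoters and the CCM complex restrains it. Of its 13 genes listed here 12 were tested and 0 were called in any comparison, with 1, 1 and 2 at an unadjusted p below 0.05, where all genes gave 22.7%, 16.4% and 14.4%. The 2 most abundant were the CCM gene Pdcd10, at 16.9 ± 1.88, 16.3 ± 1.27 and 16.0 ± 1.16 FPKM, and Map3k3, which encodes MEKK3, at 10.6 ± 0.921, 12.2 ± 0.837 and 11.6 ± 0.316. Downstream, 7 of 10 endothelial targets of KLF2 and KLF4 were tested, and 2 rose in Ang II vs. Control with 0 falling (5.94% of all genes were called), while the median of the 7 was 0.017 beside 0.083 over all genes.

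Nos3, which encodes endothelial nitric oxide synthase, was at 1.48, 2.26, 1.04, 1.29 and 1.28 FPKM in Control and at 2.75, 2.71, 2.91, 2.40 and 2.29 in Ang II mice. Every Ang II mouse lay above every Control mouse, and the log2 fold change was 0.56 (SE 0.12, limma adjusted p = 0.0174). Nos3 stayed called under all 25 alternatives, with an estimate of 0.87 at a pseudocount of 0.01, and in Ang II + QDG mice it was at 2.48 ± 0.345 FPKM, a difference of -0.057 from Ang II (adjusted p = 0.864). Thbd, which encodes thrombomodulin, rose from 7.26 ± 0.733 to 11.05 ± 2.11 FPKM, a log2 fold change of 0.53 (adjusted p = 0.0246) and was at 8.65 ± 1.43 in Ang II + QDG mice (adjusted p = 0.21 against Ang II). Thbd lost its call without Control replicate 1 (adjusted p = 0.0553), without Control replicate 3 (0.0627) and under quantile normalization (0.0661) and median scaling (0.0723).

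Glucocorticoid-responsive genes did not move as one group. Of 15 tested, 2 rose and 1 fell in Ang II vs. Control, and 1 rose and 1 fell when Ang II + QDG was set against Ang II, where 5.94% and 1.81% of all genes were called, with medians of -0.019 and -0.078 beside 0.083 and -0.018 over all genes. Fkbp5, a co-chaperone of the glucocorticoid receptor, was at 33.9, 37.5, 31.9, 41.0 and 36.2 FPKM in Control, at 47.3, 80.1, 210, 64.4 and 99.0 in Ang II and at 36.1, 26.2, 37.0, 31.0 and 30.8 in Ang II + QDG mice. The Ang II mice lay above all others, and the mouse at 210 was also the highest of its group for Klf2, Klf9, Klf10 and Klf13. The log2 fold changes of Fkbp5 were 1.26 in Ang II vs. Control (SE 0.28, adjusted p = 0.0226) and -1.42 for Ang II + QDG against Ang II (adjusted p = 0.0255).

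Dusp1, the phosphatase that switches off MAP kinases, went the other way. It was at 17.6, 12.6, 19.4, 16.8 and 18.3 FPKM in Control, at 7.87, 7.66, 9.96, 8.37 and 4.58 in Ang II and at 15.7, 22.2, 13.7, 9.72 and 26.7 in Ang II + QDG mice. All Ang II mice were below all Control mice, and 1 Ang II + QDG mouse fell within the Ang II range. Dusp1 fell by 1.07 on the log2 scale in Ang II vs. Control (adjusted p = 0.0215) and rose by 1.05 for Ang II + QDG against Ang II (adjusted p = 0.0401). The metallothionein gene Mt1 rose from 140 ± 27.2 to 220 ± 55.5 FPKM in Ang II vs. Control (log2 fold change 0.64, adjusted p = 0.0421). Its groups overlapped, with the lowest Ang II mouse at 154 and the highest Control mouse at 165 FPKM.

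The calls of these 3 genes lie near the threshold. In Ang II vs. Control, Fkbp5 and Dusp1 lost theirs without Control replicate 1 (adjusted p = 0.0526 and 0.0506), without Control replicate 3 (0.0552 and 0.0528) and without Ang II replicate 5 (0.0535 and 0.0503), with log2 fold changes of 1.21 to 1.24 for Fkbp5 and -1.05 to -0.92 for Dusp1. Without the Ang II mouse at 210 FPKM the Fkbp5 estimate was 0.94 and the call held (adjusted p = 0.0131). Fkbp5 also lost it with only these 2 groups in the fit (0.0643) and Dusp1 with its most abundant transcript alone (0.0801). When Ang II + QDG was set against Ang II, Fkbp5 lost its call in 6 and Dusp1 in 11 of the 15 fits that left out 1 mouse, both lost it with only these 2 groups in the fit (0.0863 and 0.104), Dusp1 lost it with its most abundant transcript alone (0.218), and Mt1 lost its call in Ang II vs. Control in 11 of 15. Mt1 also lost it under quantile normalization (adjusted p = 0.0839), median scaling (0.104), scaling without the mitochondrial genome (0.0525), with the most abundant transcript only (0.0605) and with only the 2 groups compared (0.0931).

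**Figure D4:**
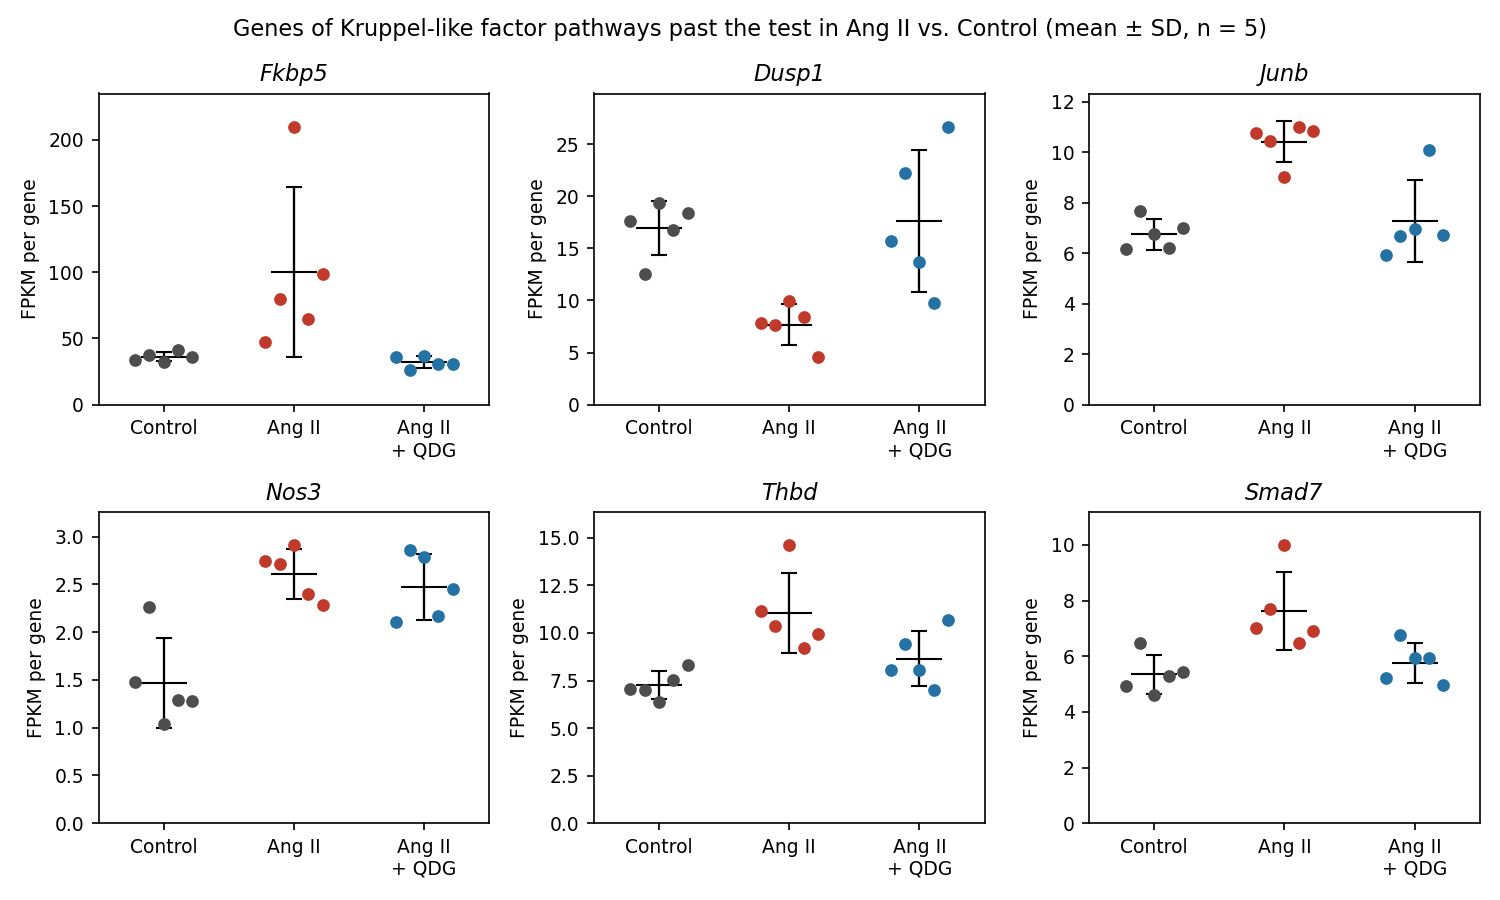
FPKM per gene of 6 genes that passed the test in Ang II vs. Control, in each mouse (points). Lines and bars are mean ± SD (n = 5 per group), on linear axes from 0. The genes come from the lists of endothelial targets, glucocorticoid response, TGF-beta and SMAD genes and immediate early genes. Fkbp5, Nos3, Thbd and Junb are higher and Dusp1 lower in every Ang II than in every Control mouse, and Fkbp5 in all 5 Ang II + QDG mice lies below all Ang II mice.

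Of the amino acid catabolism genes linked to KLF15, 8 of 9 were tested and 0 were called in any comparison, where 5.94%, 1.81% and 0.129% of all genes were called, with a median log2 fold change of 0.069 in Ang II vs. Control beside 0.083 over all genes. The proline-degrading enzymes Aldh4a1 and Prodh were the most abundant, Aldh4a1 at 159 ± 20.1, 170 ± 25.5 and 171 ± 20.3 FPKM and Prodh at 123 ± 23.1, 134 ± 14.1 and 130 ± 22.4 in the same order. Both thus varied between groups by less than their spread within a group.

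Of the TGF-beta and SMAD genes linked to KLF10, 9 of 10 were tested, and Smad7, the inhibitory SMAD, was the 1 that rose in Ang II vs. Control, with 0 falling, where 5.94% of all genes were called. The median of the 9 was 0.12 beside 0.083 over all genes. It was at 4.94, 6.47, 4.62, 5.30 and 5.42 FPKM in Control and at 7.03, 7.71, 9.98, 6.47 and 6.92 in Ang II mice. The 2 groups met at 6.47 FPKM without crossing. The log2 fold change was 0.43 (SE 0.11, adjusted p = 0.0398), and it lost its call in 9 of 15 fits that left out 1 mouse. Smad7 also lost it under quantile normalization (adjusted p = 0.112), median scaling (0.110), scaling without the mitochondrial genome (0.0646), with the most abundant transcript only (0.0605) and with only the 2 groups compared (0.0768). In Ang II + QDG mice Smad7 was at 5.77 ± 0.714 FPKM (-0.34 against Ang II, adjusted p = 0.142).

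Immediate early genes, which like Klf2, Klf4, Klf6 and Klf10 are induced rapidly by stimuli, gave the largest share of calls of these lists in Ang II vs. Control. The lists were chosen with earlier results of these data known, so this order is only a description. Of 13 listed, 11 had values in every mouse and 8 were tested. Of these 8, 4 rose in Ang II vs. Control and 0 fell, where 5.94% of all genes were called. On the values as deposited, 612 of the 735 genes called were higher. The median log2 fold change of the 8 was 0.37 beside 0.083 over all genes. Junb, a subunit of AP-1, was at 6.15, 7.66, 6.76, 6.23 and 6.998 FPKM in Control, at 10.8, 10.5, 9.03, 11.01 and 10.8 in Ang II and at 5.91, 6.70, 6.97, 10.1 and 6.74 in Ang II + QDG mice. All Ang II mice exceeded all Control mice, and 1 Ang II + QDG mouse lay within the Ang II range.

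Junb rose by 0.56 in Ang II vs. Control (SE 0.11, adjusted p = 0.0144), a call that held under all 25 alternatives, and fell by 0.48 on the log2 scale with QDG added to Ang II (adjusted p = 0.0438), a call lost in 13 of 15 fits that left out 1 mouse and in 3 of the other 10 alternatives. Jun rose from 7.19 ± 1.22 to 11.3 ± 2.03 FPKM, a log2 fold change of 0.59 (adjusted p = 0.0165), and stayed called under all 25 alternatives, with estimates from 0.49 to 0.65. The nuclear receptor gene Nr4a1 rose from 1.495 ± 0.656 to 4.99 ± 2.21 (1.20, adjusted p = 0.0312), a call lost in 8 of 15 fits that left out 1 mouse and with only the 2 groups compared (adjusted p = 0.0624). For Nr4a1 the groups overlapped, with the lowest Ang II mouse at 1.58 and the highest Control mouse at 2.52 FPKM. In Ang II + QDG vs. Ang II 1 gene, Junb, fell and 0 rose, where 1.81% of all genes were called.

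Of the clock genes and clock outputs, 12 of 14 were tested, and 2 rose in Ang II vs. Control with 0 falling, where 5.94% of all genes were called. Their median log2 fold change was 0.082 beside 0.083 over all genes. Nr1d1, the repressor REV-ERB alpha, rose from 29.2 ± 3.08 to 39.9 ± 2.39 FPKM, a log2 fold change of 0.44 (adjusted p = 0.0371), and the clock repressor gene Ciart from 1.14 ± 0.911 to 3.29 ± 1.02 (1.06, adjusted p = 0.033). At a pseudocount of 0.01 the Ciart estimate was 1.76. Ang II and Control mice overlapped for Ciart but not for Nr1d1. Both calls were lost in 8 of 15 fits that left out 1 mouse, under quantile normalization and median scaling and with the most abundant transcript only. Nr1d1 also lost its call under scaling without the mitochondrial genome (adjusted p = 0.062) and Ciart with only the 2 groups compared (0.0549). No gene of this list was called in the comparisons with Ang II + QDG, where 3 of 12 had an unadjusted p below 0.05 against Ang II (16.4% of all genes) and 6 of 12 against Control (14.4%).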

How the data were processed

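Kidney RNA of 15 mice, 5 per group, was depleted of ribosomal RNA per the labels and sequenced. The study's methods also name a poly(A) isolation kit, so which RNAs were kept is not certain. The authors deposited 1 table per mouse with an FPKM value per transcript (build mm10 per the labels, whose processing notes name limma). The unit was inferred from the values, which were whole multiples of 1 read for 98.7% to 98.8% of values (tolerance 0.1 read, values under 200 reads), and the aligner and assembler are not given in the sources used here. GEO's labels gave the groups, and replicate numbers follow accession order. P-values measure the spread between these mice. Of 40054 transcripts in every file, 28863 matched GENCODE mouse release 21 and were summed per gene (31244 of 31301 Ensembl identifiers matched). Each Control mouse had 41477 listed transcripts and each mouse of the infused groups 42310, so the lists differed along the comparisons with Control. Assembled transcripts without a gene name (9.6% to 11.9% of FPKM) were left out.

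Genes that reached 1 FPKM in 5 or more mice (12366) entered 1 limma model (lmFit and eBayes with trend, limma 3.58.1, R 4.3.3) of log2(FPKM + 1), two-sided, with Benjamini-Hochberg adjustment over all of them and 0.05 as threshold. The script was tested on simulated data. Correlations used permutation within groups (100000 resamples, scipy 1.17.1). The members and gene lists were chosen with earlier results of these data known. All members are given, and of each list up to 3 called genes with the smallest adjusted p, or else the 2 most abundant. For each member, the 2 genes with the highest Pearson's r are named. Promoter sequences came from RefSeq (GRCm38.p6), with no region used for Klf10. Alternatives were another pseudocount, filter, scaling, transcript choice or variance estimate, fits of 2 groups alone, and leaving out each mouse.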

Additional observations from a re-analysis of the deposited data

Results flagged for a closer look

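In 6 of 39 groups of 5 values (7 members and 6 transcripts of Klf13 and Klf15), 1 mouse stood far from the other 4 by Dixon's test, and chance flags about 1 in 20 groups. For gene sums this was so in 2 of 21 groups. Klf4 in Ang II + QDG replicate 5 was at 1.80 FPKM, below 3.18 to 3.44 in the other 4. Klf13 in Ang II replicate 3 was at 17.3 FPKM, above 11.02 to 12.5, and its long transcript ENSMUST00000063694 in the same mouse at 12.98, above 8.03 to 9.32. The Klf15 transcript ENSMUST00000032174 was at 26.9 FPKM in Ang II replicate 4, where the others had 0.197 to 0.425, and at 22.1 in Ang II + QDG replicate 4, where the others had 0.398 to 2.01. The Klf15 transcript ENSMUST00000203607 was at 32.3 FPKM in Control replicate 1, above 5.44 to 6.78.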

How the results depend on the processing

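The number of members called was 0 in each comparison under all 25 alternatives. In 23 alternative estimates a member changed sign (7 under other settings and 16 with 1 mouse left out), all of them uncalled in both fits. By setting these were Klf2 (-0.0080) in Ang II vs. Control and Klf9 (0.034) and Klf15 (0.035) in Ang II + QDG vs. Ang II under quantile normalization, Klf2 (-0.023) and Klf9 (-0.017) in Ang II vs. Control and Klf9 (-0.043) in Ang II + QDG vs. Control under median scaling, and Klf15 (0.36) in Ang II vs. Control with the most abundant transcript only. With 1 mouse left out, estimates in Ang II vs. Control ran from -0.055 to 0.19 for Klf2 and from -0.057 to 0.32 for Klf10, those in Ang II + QDG vs. Ang II from -0.072 to 0.18 for Klf2, from -0.12 to 0.042 for Klf9 and from -0.12 to 0.15 for Klf15, and those of Klf9 in Ang II + QDG vs. Control from -0.028 to 0.17. The count of all genes called in Ang II vs. Control (735) became 353 with the most abundant transcript only and 456 with only the 2 groups compared, and 338 to 797 with 1 mouse left out. In Ang II + QDG vs. Ang II (224) it was 58 with only the 2 groups compared and 53 to 250 with 1 mouse left out. In Ang II + QDG vs. Control (16) it was 80 with transcripts of any file, 6 with the most abundant transcript only, 4 with only the 2 groups compared and 0 to 110 with 1 mouse left out. Each Control mouse had 41477 listed transcripts and each mouse of the infused groups 42310. With transcripts of any file, a transcript not listed for a mouse counted as 0 FPKM. The part of this difference in the calls and the cause of the other shifts were not tested. The study divided different mice at random into the 3 groups, so there was no pairing between groups, and the labels carry no replicate numbers. The members had at least 145 implied reads in each mouse, and the effect of depth was not tested.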

Other observations

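Summed adipose tissue markers ran from 0.272 to 45.1 FPKM in Control, from 0.0444 to 79.0 in Ang II and from 2.54 to 16.9 in Ang II + QDG mice, and summed smooth muscle and pericyte markers from 38.5 to 52.0, from 45.3 to 100.1 and from 54.5 to 65.0. The Ang II mouse with the highest values of both, at 79.0 and 100.1 FPKM, also had the highest Klf6 value of all 15 mice (11.1 FPKM). Summed leukocyte markers ran from 13.8 to 25.98 FPKM in Control, from 8.99 to 20.3 in Ang II and from 16.3 to 65.8 in Ang II + QDG mice. They were highest in Ang II + QDG replicate 4, where Klf2 was at its lowest of all mice (8.78 FPKM). The mice next lowest in Klf2, Ang II replicate 5 (9.11) and Control replicate 4 (9.89), had leukocyte sums of 11.3 and 13.8. This and the Klf6 value above concern single mice picked from many values and are given as a description. Summed markers ran from 544.6 to 1362 FPKM in Control, from 1115 to 1943 in Ang II and from 1557 to 2818 in Ang II + QDG mice for erythroid cells, from 4731 to 16322, from 4915 to 6938 and from 7094 to 11816 for proximal tubule, and from 1272 to 1720, from 1046 to 1559 and from 1422 to 1926 for the distal nephron. Those for urothelium were 0.620 to 6.98, 0.824 to 13.8 and 0.669 to 7.98. Star, the only adrenal cortex marker in all files, was at 0.692 to 1.16, 0.848 to 0.929 and 0.772 to 1.45. The part of these values in the members' results was not tested.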
